A study of Homo sapiens with 6 samples.

Results

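The regions described here are accessible sites that all 6 libraries of a myeloma experiment listed, but that stood lower in the ranking of every library with ATF4 knocked down than in the ranking of every control library. They were chosen by their fold enrichment in all 6 libraries, as follows. Peaks with a −log10 q of at least 2 on chromosomes 1 to 22 were merged over the 6 lists into 208831 regions, and 59853 of these held such a peak in all 6 lists and are called shared regions. Within each library a shared region was given the percentile of its highest fold enrichment, which is the tag pileup at a summit over the local background, each with 1 added. A shared region was kept when its lowest control percentile exceeded its highest knockdown percentile by 10 points or more, and that difference is called its gap. A negative gap means that the groups overlapped or lay in the opposite order. The rule kept 2199 of 59853 shared regions (3.67%), here called falling regions. The same rule in the opposite direction gave 2968 rising regions (4.96%). Since the fold percentiles of all 6 libraries chose the regions, those values are given as a description and carry no test.

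KMS-11 is a human cell line from multiple myeloma, a cancer of antibody-secreting plasma cells. The assay was ATAC-seq, which marks open chromatin by the places where the transposase Tn5 can reach DNA and join adapters to it. Both groups carry the genotype label WT. The 3 control libraries carry the treatment label LentiV2, the name of a lentiviral vector, and the 3 knockdown libraries the label LentiV2_ATF4g3, so every knockdown library bears 1 and the same guide label and no second guide was compared. The labels call the samples of a group biological replicates, give no time after transduction, and do not state whether the guide acts by cutting or by repression. Peak lists measure neither the RNA nor the protein of ATF4, so they hold no check of the knockdown. In bulk chromatin, fewer cells with an open site and less opening per cell cannot be told apart.

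ATF4 is a basic leucine zipper transcription factor whose translation increases when the integrated stress response is switched on, for example by amino acid shortage or by misfolded protein in the endoplasmic reticulum. It binds DNA as a dimer, often with a C/EBP protein at a composite site, and activates genes of amino acid transport, amino acid synthesis and tRNA charging. Plasma cells secrete large amounts of antibody and are known to depend on this kind of stress response. Accessible sites at gene starts are mostly shared between cell types, whereas sites inside and between genes include enhancers, which are more often particular to a cell type.

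Most falling regions lay far from gene starts, and RefSeq promoter sequence exists only for the few that held a start. Among the 2068 falling regions in which starts were looked up, 29 protein-coding genes had a start with a RefSeq promoter window (GRCh38.p14). Of these, the upstream sequences of the 3 starts with the largest gap are shown to set the bases of the accessible site beside its values. Each gives the 250 bases before the start, 5′ to 3′ on the strand of the gene, and capitals mark exact matches, on either strand, to the motifs that were searched. The first belongs to an internal start of IL21R, which encodes the receptor chain for interleukin 21, a cytokine of T cells that acts on B cells and plasma cells. Its window (chr16:27427021-27427270, plus strand) holds TGATGCAAT, a composite ATF4 and C/EBP motif, and a CCAAT box read on the opposite strand. The second belongs to NME5, a member of the nucleoside diphosphate kinase family found in cilia and sperm (chr5:138139429-138139678, minus strand), with a TATA motif and a CCAAT box, both on the opposite strand. The third belongs to CALML3, a calmodulin-like protein of epithelia (chr10:5524711-5524960, plus strand), with a CCAAT box.
IL21R: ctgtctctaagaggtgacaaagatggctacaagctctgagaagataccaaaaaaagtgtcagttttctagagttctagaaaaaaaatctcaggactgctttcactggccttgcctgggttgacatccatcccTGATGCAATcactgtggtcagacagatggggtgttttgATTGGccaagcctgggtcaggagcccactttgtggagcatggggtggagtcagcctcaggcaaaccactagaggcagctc
NME5: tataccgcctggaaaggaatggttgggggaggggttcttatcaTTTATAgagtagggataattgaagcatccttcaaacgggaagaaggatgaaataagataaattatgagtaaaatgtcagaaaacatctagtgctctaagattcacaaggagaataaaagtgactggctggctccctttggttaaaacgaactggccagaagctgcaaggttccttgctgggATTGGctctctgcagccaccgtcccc
CALML3: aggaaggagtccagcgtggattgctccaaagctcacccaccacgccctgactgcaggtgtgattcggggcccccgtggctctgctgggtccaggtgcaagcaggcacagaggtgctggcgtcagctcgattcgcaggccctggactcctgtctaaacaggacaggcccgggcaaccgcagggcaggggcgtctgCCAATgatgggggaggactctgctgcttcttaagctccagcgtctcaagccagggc

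By the fold percentile that chose them, most falling regions ranked above the middle in the controls and below it in the knockdown libraries. By tag pileup, given below, the median falling region was not stronger in the controls than the median shared region. Over the 2199 regions, the median control percentile had a median of 67.6 and the median knockdown percentile a median of 33.8. The gap had a median of 15.8 points and a highest value of 68.8. Their fold enrichment, as the median of each library, was 13.5 ± 1.60 in the controls against 5.96 ± 0.54 with knockdown, against 10.6 ± 1.08 and 7.61 ± 0.46 over all shared regions (mean ± SD of 3 library medians). Within a group, the percentiles of a falling region scattered with a median SD of 5.41 points in the controls against 7.23 points with knockdown. A gap of 20 points or more was found for 625 falling regions (28.4%) and, in the opposite direction, for 497 rising regions (16.7%). Only 44 falling regions (2.00%) had a gap of 40 points or more.

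The region with the largest gap lay between genes, 16.1 kb from an end of SPARC, which encodes a secreted glycoprotein of the extracellular matrix (chromosome 5, 151703021 to 151703732, hg38). Its fold enrichment was 17.0, 21.9 and 15.7 in controls 1, 2 and 3 and 3.42, 4.44 and 3.71 in knockdown libraries 1, 2 and 3, a ratio of group means of 4.72. The corresponding percentiles were 86.6, 93.4 and 85.4 against 7.12, 16.6 and 7.04. By fold percentile, all 3 controls placed this region among the strong sites and all 3 knockdown libraries among the weakest, with no overlap. The size of its gap depended on the ranked measure. It was 50.4 points by −log10 q and 43.1 by pileup over library background, below the 58.7 and 57.3 of the IL21R region. By the mean fold over the summits of a region the gaps were 57.5 points at SPARC and 32.3 at IL21R. Its summit was covered by 78, 101 and 93 tags in the controls and by 11, 13 and 12 with knockdown. The other 2 shared regions whose nearest gene was SPARC had percentiles of 71.4 or more in every library, with gaps of 2.82 and 3.09 points.

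The IL21R region (chromosome 16, 27426483 to 27427553) held the start shown above and had the second largest gap, 60.7 points. It lay inside the gene, 24.3 kb from the nearer of its 2 annotated outer ends, so the start is an internal one. Summit pileups were 122, 158 and 122 tags in the controls against 12, 9 and 16 with knockdown, and percentiles were 80.7, 90.1 and 79.3 against 10.5, 3.12 and 18.6. The groups lay far apart, and in knockdown library 2 the pileup of 9 was the smallest that any peak of that list reached at the −log10 q threshold of 2. The control summits lay on average at −62.3 bases relative to the start, and 51.7 bases from the middle of the TGATGCAAT match. The region at the outer end of IL21R (27401850 to 27403587) had percentiles of 68.8, 63.3 and 63.9 in the controls against 66.2, 66.0 and 68.7 with knockdown. The third shared region nearest to IL21R (27388626 to 27390077), upstream of the gene, had 57.3, 63.5 and 70.7 against 76.8, 75.9 and 86.3. Of the 3, only the internal start was a falling region.

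SHC3, an adaptor protein of receptor tyrosine kinases that is mainly neuronal, had 3 shared regions as the nearest gene and all 3 were falling regions. The one with the larger gap (chromosome 9, 89219400 to 89220315, 40.6 kb from the gene) had percentiles of 85.3, 77.8 and 78.5 in the controls against 7.12, 18.7 and 11.2 with knockdown. A region inside the gene (89174326 to 89174999) had 91.4, 84.5 and 94.5 against 40.7, 68.4 and 52.8. The region 7.02 kb from its end (89185838 to 89186499) passed the rule narrowly, with 66.3, 70.2 and 58.8 against 33.3, 29.0 and 48.2. The locus was singled out after its values were seen.

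**Figure D1:**
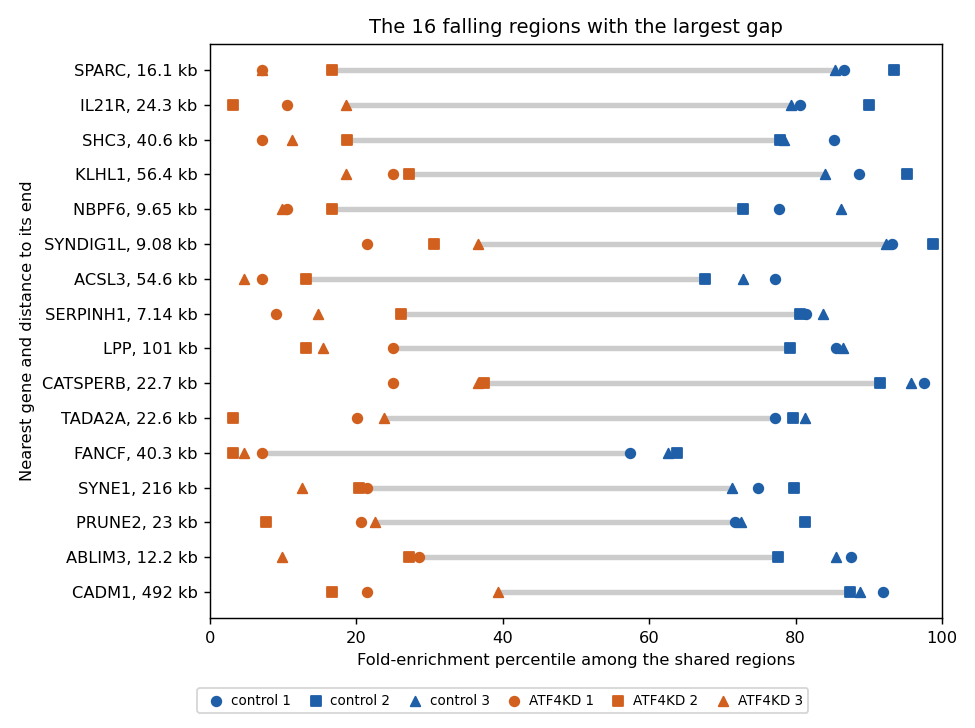
Fold-enrichment percentile (horizontal axis, 0 to 100, 100 being the strongest shared region of a library) of the 16 falling regions with the largest gap, each point 1 library, controls in blue and knockdown libraries in orange, and the grey bar the gap. The groups are apart by construction of the rule, and the gaps run from 68.8 points at SPARC to 48.1 points at CADM1.

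The other regions among the 16 with the largest gap lay near or inside genes of varied function, with gaps of 56.9 points or less. None of the 16 overlapped or lay within 1 kb of an annotated gene end. KLHL1, an actin-binding protein of neurons, NBPF6, of the neuroblastoma breakpoint family, and SYNDIG1L, a membrane protein of synapses, had gaps of 56.9, 56.2 and 55.8 points. Ranked by pileup over library background, their gaps were 35.5, 27.5 and 30.3 points. ACSL3, which activates long-chain fatty acids, had 2 falling regions and 1 rising region among its 10 shared regions. The falling region with the larger gap (chromosome 2, 222805388 to 222806387) had percentiles of 77.2, 67.7 and 72.8 in the controls against 7.12, 13.0 and 4.61 with knockdown. The rising region, inside the gene, had 76.4, 68.6 and 69.2 against 89.4, 88.6 and 95.3. Near SERPINH1, the collagen chaperone of the endoplasmic reticulum (chromosome 11, 75554280 to 75555113, 7.14 kb away), summit pileups were 128, 148 and 143 tags against 12, 17 and 15. The controls there held several times the tags of any knockdown library, and the pileup over library background differed by a ratio of 7.17 between group means.

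A region inside ESR1, the gene of oestrogen receptor alpha (chromosome 6, 151904987 to 151905453), had percentiles of 74.9, 79.9 and 71.3 against 21.5, 20.3 and 12.5. The groups did not overlap there, and the nearest annotated gene end was that of SYNE1. The others of the 16 were inside LPP, CATSPERB, TADA2A, PRUNE2 and ABLIM3 or nearest to FANCF and CADM1, with gaps of 54.2 to 48.1 points. FANCF, a subunit of the Fanconi anaemia core complex, started lowest of these in the controls, with percentiles of 57.4, 63.7 and 62.6, against 7.12, 3.12 and 4.61.

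Falling regions were scarce at gene ends, a property that the rule did not use. A gene end here is either annotated end of a RefSeq protein-coding gene. Within 1 kb of a gene end lay 107 of the 2199 falling regions, 4.87% (exact binomial 95% interval 4.00 to 5.85%, which covers counting error over regions, not over libraries). Over all shared regions the share was 21.1%, and among rising regions it was 48.8%. Of the falling regions 45.2% lay inside a gene more than 1 kb from its ends and 49.9% between genes. More than 100 kb from any gene end lay 26.5% of falling, 19.0% of all shared and 10.98% of rising regions, and the median distance was 33.0, 17.9 and 1.52 kb. An annotated start lay in 49 of 2068 falling regions outside chromosome 8 (2.37%), against 18.8% of all shared and 46.7% of rising regions.

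Read the other way, 0.847% of the shared regions within 1 kb of a gene end were falling regions, 3.11% of those from 1 to 5 kb, and 4.73, 4.36, 4.38 and 5.12% of those at 5 to 10, 10 to 50, 50 to 100 and over 100 kb. The lowest share was thus within the first 1 kb, and beyond 5 kb the shares lay close together. Across the 22 chromosomes the share ranged from 2.19% on chromosome 19 to 5.47% on chromosome 13. Chromosome 19 is the most gene-dense of the human set and chromosome 13 among the least. These are only the 2 extremes, and a relation of the share to gene density over the 22 chromosomes was not tested.

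**Figure D2:**
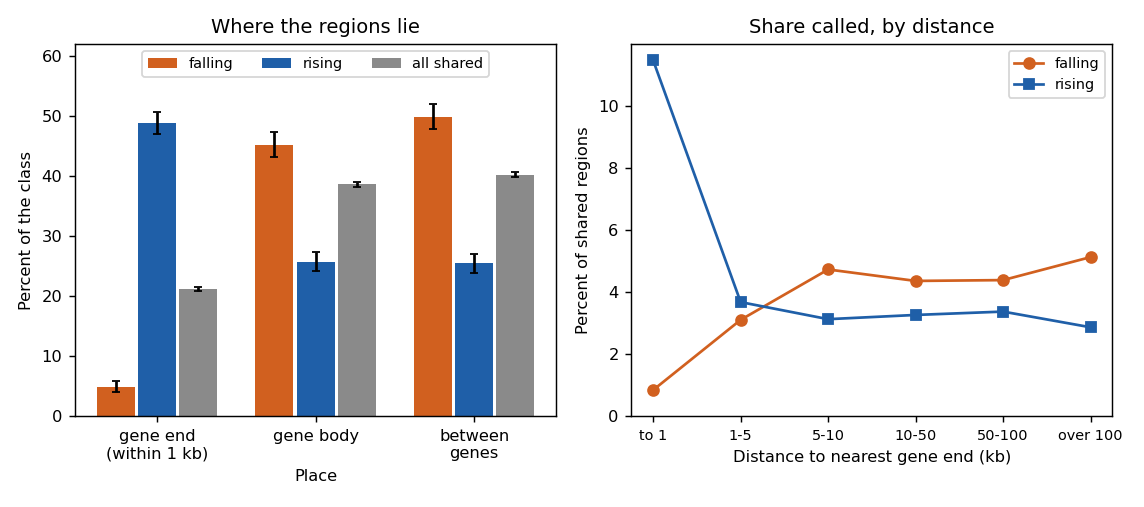
Left, percent of falling, rising and all shared regions at gene ends, inside genes and between genes, with exact binomial 95% intervals as bars. Right, percent of shared regions that were falling or rising by distance to the nearest gene end in kb. Falling regions make up 4.87% at gene ends in the left panel, and in the right panel their share rises from 0.847% within 1 kb to 5.12% beyond 100 kb.

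Gene-end and other regions differ in strength, so the share is also given by control level. The control percentile is part of the rule, so this split is a description. What part the control level has in the share was not tested. With shared regions split into 10 bands of the median control percentile, band 10 being the strongest, 1.74% of those at gene ends and 8.68% of the others in band 8 were falling. In band 9 the shares were 0.614 and 9.10%, and in band 5 they were 1.07 and 4.72%. Gene ends had the lower share in each band from 3 to 10, and in band 2 the shares were nearly equal, 0.141 and 0.149%. No falling region can come from the lowest control ranks, since the rule asks for a drop of 10 points, and band 1 held 0.

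The local background moved with the same result. In the controls it was 1.31 times the library-wide background at the median falling region, 1.94 times over all shared regions and 5.74 times at the median rising region. With shared regions split into 10 bands of equal size by local background, 7.95% were falling in band 3 and 0.134% in band 10, the highest. Gene ends had the lower share of falling regions in 9 of these 10 bands, for example 2.01 against 6.42% in band 5. The exception was band 2, with 6.60% of 197 regions at gene ends against 4.49% of the others. What part the local background has in the fold percentiles was not tested.

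**Figure D3:**
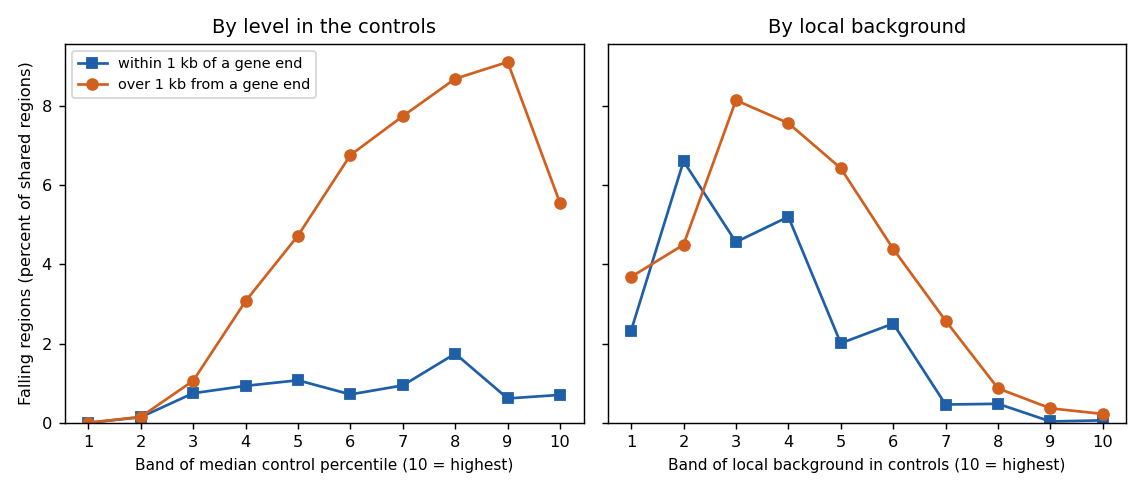
Percent of shared regions that were falling, within 1 kb of a gene end (blue squares) and farther away (orange circles), by band of the median control percentile (left) and of local background in the controls (right), each from 1, the lowest, to 10. In band 9 of control level the values are 0.614 and 9.10%, and in band 2 of local background the order is opposite, 6.60 and 4.49%.

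Tag pileups give the same regions on another scale. The median falling region was covered by 69, 75 and 69 tags in the controls and by 21, 20 and 25 with knockdown, and the median shared region by 76, 84 and 79 against 37, 36 and 44. The knockdown libraries were shallower, with a library-wide background of 2.51, 2.15 and 2.51 tags against 3.19, 2.79 and 3.52, and listed 147103 to 157869 against 183451 to 193064 summits at the threshold. Divided by that background, the pileup of the median falling region was 22.7 ± 3.76 in the controls against 9.21 ± 0.80 with knockdown (SD of library medians, n = 3). Over all shared regions it was 25.5 ± 4.09 and 16.3 ± 1.44, so all shared regions were lower at the median. Region by region, the log2 ratio of knockdown to control had a median of −0.54 over all shared, −1.27 over falling and −0.14 over rising regions. The median rising region was thus also lower on this scale, though by less than the others.

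On the pileup scale 35180 of 59853 shared regions (58.8%) were lower in every knockdown library than in every control, and so were 2197 of the 2199 falling regions. This scale shares its tags with the fold that chose them, so the count supports nothing further. By fold percentile alone, without a minimum gap, 7935 shared regions (13.3%) were lower and 12084 (20.2%) higher in all 3 knockdown libraries. By the percentile of −log10 q, which the same peak caller derives from the same tags, 8095 shared regions (13.5%) were lower without overlap, of which 2091 were falling regions. Of the 1564 regions with a gap of 10 points by −log10 q (2.61%), 1071 were falling regions, which is 68.5% of these and 48.7% of the falling regions.

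The falling regions had a lower median width than all shared regions, but the order depends on the ranked measure. The merged width had a median of 781 bp, with quartiles of 624.5 and 956 bp, against 829 bp over all shared and 1266.5 bp over rising regions. Falling regions chosen by −log10 q or by pileup over library background were instead wider than the 829 bp, with medians of 845 and 879 bp. The listed peaks of a library within a region, with their widths summed, spanned 637 ± 26.6 bp in the controls against 414 ± 18.8 bp with knockdown. Over all shared regions they spanned 673 ± 26.1 and 544 ± 19.1 bp. The summed width was lower in every knockdown library than in every control for 1293 falling regions (58.8%) and for 30.3% of all shared regions. A caller draws a lower peak narrower, and the part of depth in this width was not tested. The group means of the summit lay a median of 8.67 bp apart in falling regions, as over all shared regions, and in 10% of each class they lay more than 64.4 and 83.3 bp apart.

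**Figure D4:**
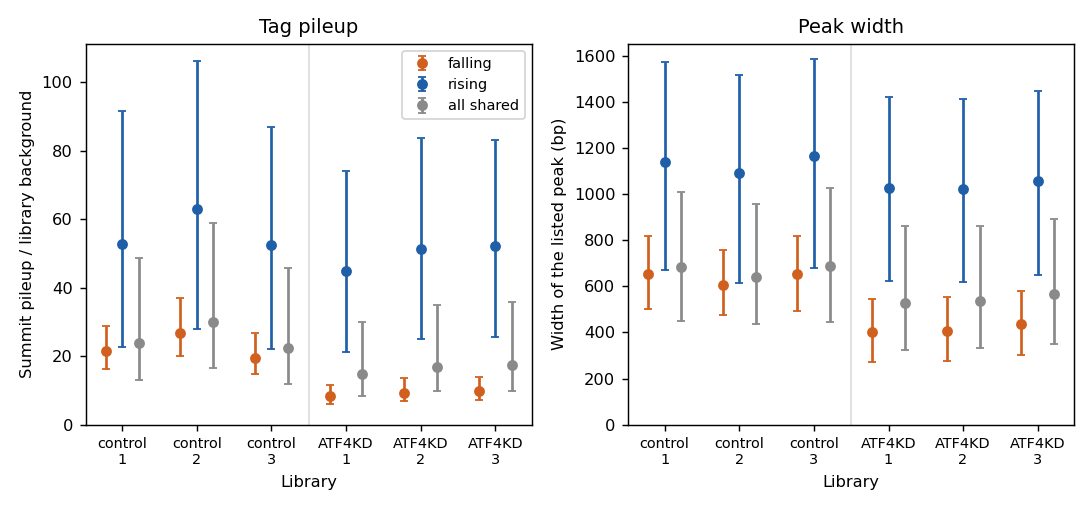
Median (point) and quartiles (bars) of the summit pileup over the library-wide background (left) and of the listed peak width in bp, summed within a region (right). Each of the 6 libraries is shown, for falling, rising and all shared regions. On the left the falling regions sit near the shared median in the controls and below it in each knockdown library, at 8.37, 9.30 and 9.96.

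Counting error limits single regions more than the class. At the pileup of the median falling region, 1 tag was worth 2.32 to 2.95 percentile points in the knockdown libraries and 0.942 to 1.01 in the controls. A Poisson SD of the pileup was worth up to 12.1 and 8.51 points, so gaps near the threshold lie within counting error. Just inside the threshold, regions in CDK6 and KCNQ5 had gaps of 10.01 and 10.02 points, and just outside it regions in ELMO1 and RBPMS both had 9.99. Regions that lacked a peak at a −log10 q of at least 2 in even 1 knockdown library could not enter. Of these, 3118 had such a peak in all 3 controls and no listed peak in any knockdown library. Regions lost from only some of the knockdown libraries are not in that count. A pileup of 12 tags or less, close to the smallest that passed, was found for 10.7, 14.1 and 7.55% of falling regions in knockdown libraries 1, 2 and 3 and for 4.65, 6.64 and 2.95% of all shared regions.

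The largest gap among the 107 falling regions at gene ends, 41.9 points, was at ABCG1, a cholesterol exporter (chromosome 21, 42199016 to 42200098), with percentiles of 89.5, 79.2 and 93.0 in the controls against 28.5, 37.4 and 21.7 with knockdown. POU5F1, the pluripotency factor OCT4 (chromosome 6, 31164635 to 31165683), had 91.8, 93.8 and 94.4 against 51.6, 56.3 and 56.6. The knockdown libraries agreed closely with each other at POU5F1, at middle rather than low ranks. At NME5 (chromosome 5, 138138955 to 138139790), whose promoter is shown above and which overlaps BRD8, a bromodomain gene, they were 85.0, 85.1 and 88.9 against 41.4, 54.6 and 51.7. The gaps of ABCG1, POU5F1 and NME5 turned negative when the mean fold over the summits of a region was ranked in place of the highest. The other 7 were AADACL2, PM20D1, PTPRQ, MMACHC, FMN2, CELA2A and SYDE2, with gaps of 36.1 to 29.0 points. By mean fold those of AADACL2 and FMN2 were under the 10 points of the rule, at 4.99 and 8.01. MMACHC, which processes vitamin B12, had 64.2, 59.0 and 60.6 against 27.0, 17.9 and 23.3.

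Further starts in falling regions had smaller gaps. CALML3 (chromosome 10, 5524477 to 5525150) had percentiles of 42.0, 30.6 and 37.5 in the controls against 1.77, 1.42 and 11.2 with knockdown, so it went from a middling rank to the bottom of the lists. RPL21, a protein of the large ribosomal subunit, had 80.3, 79.7 and 68.1 against 32.0, 49.4 and 44.4. TBXA2R, the thromboxane receptor, had 69.3, 82.6 and 79.96 against 46.4, 50.5 and 50.2, and its control summits lay 437 bases from the start. None of the 3 kept a gap of 10 points by pileup, with 4.98 at CALML3, 9.61 at RPL21 and 9.31 at TBXA2R, and by mean fold RPL21 had 1.53 and TBXA2R −0.96. Single libraries set these gaps: without knockdown library 3 that of CALML3 was 30.6, without control 3 that of RPL21 29.9, and without control 1 that of TBXA2R 29.2 points. BLNK and TLR9, starts of B-lineage genes with gaps of 15.8 and 12.6 points, were chosen after their values were seen. They do not stand for the 29 genes with a start in a falling region. Starts with larger gaps that are not described further included COL10A1, ZNF358 and TMEM184A, at 18.2, 17.6 and 17.0 points. BLNK, an adaptor of the B cell receptor (chromosome 10, 96271053 to 96272094), had 93.4, 92.6 and 90.5 against 74.7, 70.7 and 46.9. TLR9, a sensor of unmethylated DNA (chromosome 3, 52225542 to 52226770), had 60.0, 71.8 and 67.2 against 29.2, 28.5 and 47.5. The control summits at TLR9 lay on average at −491 bases relative to the start.

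The few promoters in falling regions had a lower GC content than those in other shared regions. RefSeq windows of 300 bases, 250 before to 50 after a start, had a median GC content of 59.0% for the 31 windows in falling regions, 66.7% for 12814 windows in shared regions and 70.0% for 1767 in rising regions. The GC box GGGCGG was found in 45.2% of falling windows, 74.0% of shared windows and 56.6% of all 21156 windows searched. The TATA motif TATAAA stood in 6 of 31 falling windows (19.4%), against 4.81% of shared and 9.51% of all windows, and the ETS motif CCGGAAG in 3.23%, against 19.1 and 12.9%. The cyclic AMP response element TGACGTCA was in 0 of 31 and in 3.23% of shared windows, and the AP-1 motif TGACTCA was in 1 of 31 (3.23%) and in 2.54%. Matches are exact and on both strands, 31 windows are few, and a match is not a bound site.

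The composite ATF4 and C/EBP motif, spelled TGATGCAAT or TGATGCAAC, was in 1 falling window, that of IL21R, and in 33 of 12814 shared windows (0.258%), against 0.340% of all windows. These shared windows lay in 31 regions, of which 1 was falling and 7 were rising. Of all 9582 shared regions with a protein-coding start, 29 were falling and 1231 rising. The rising share was thus larger in the 31, but it rests on 7 regions. The mean percentile was lower in the knockdown group for 6 of the 31 (19.4%), and for 15.2% of the 9582 shared regions with a protein-coding start. The median difference, knockdown minus control, was 7.81 points in the 31 and 8.13 points in the 9582. By the median difference, regions with the motif at a start thus stood near other starts, with IL21R apart at −72.6 points and the next lowest, LOC102724560, at −13.1.

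Promoters of known ATF4 targets with this motif included regions with both small and large rank differences, with 1 of the 6 described here below 0. These 6 were chosen from the 31 after their values were seen, so their signs do not stand for all targets. HERPUD1, a protein of endoplasmic reticulum quality control, had the highest difference of the 31, from a mean percentile of 50.4 to 76.5. CHAC1, which degrades glutathione, went from 75.3 to 91.5, and MARS1, the methionyl-tRNA synthetase, from 78.5 to 97.5. AARS1 and IARS1, which charge tRNA with alanine and isoleucine, differed by 1.93 and 1.88 points, and CARS1, for cysteine, by −2.19. These are ranks among shared regions, which gene ends as a class gained, and they are not absolute accessibility.

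**Figure D5:**
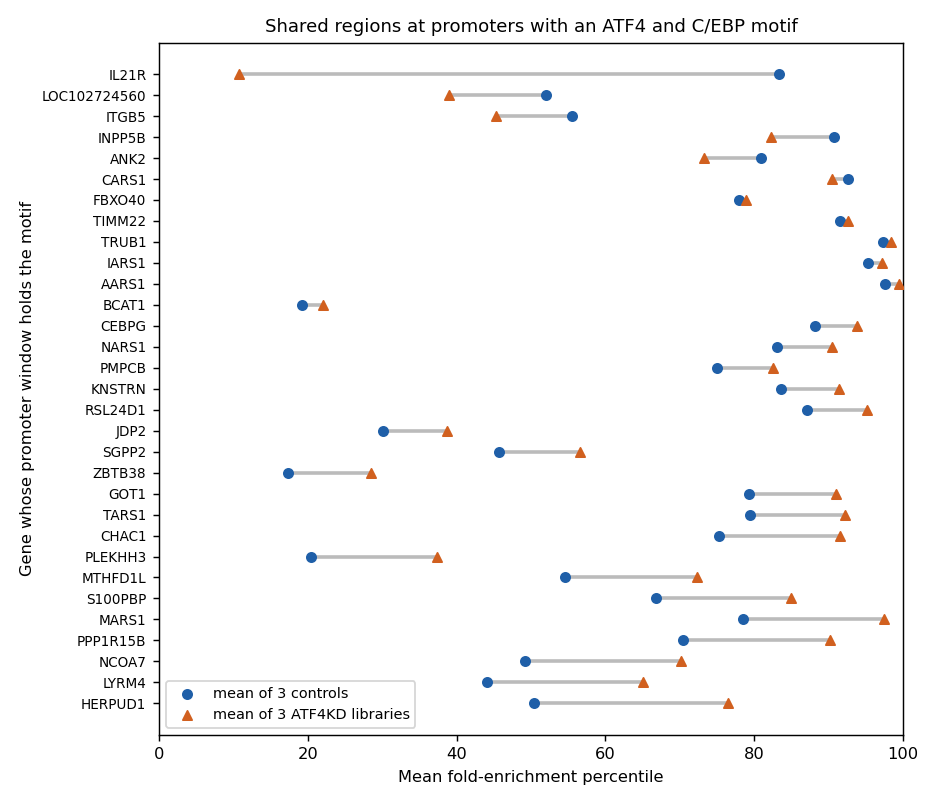
Mean fold-enrichment percentile in the 3 controls (blue circles) and the 3 knockdown libraries (orange triangles) of the 31 shared regions whose promoter window holds the composite ATF4 and C/EBP motif, ordered by the difference. IL21R differs by −72.6 points, and the others lie between −13.1 and 26.2 points.

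Gene lists describe which biology lay nearest to the falling regions, beside the 3.67% of all shared regions that were falling. Of the 92 shared regions of 32 ATF4 target genes, 5 were falling (5.43%), and they were nearest to or inside ASNS, EIF4EBP1 and VEGFA. Of the same 92 regions, 7 were rising (7.61%, against 4.96% of all shared regions). Their median rank difference, knockdown minus control, was 5.50 points, so the list as a whole did not rank lower with knockdown. The median gap of the list was −16.9 points, against −13.6 over all shared regions, and it was −14.3 for the endoplasmic reticulum list, −12.6 for the plasma cell list, −17.6 for the NF-kB list and −11.4 for the tRNA synthetases. VEGFA, the main growth factor of blood vessels, had a region 51.6 kb from its end (chromosome 6, 43838131 to 43838993) with percentiles of 68.7, 46.4 and 45.5 against 4.79, 22.7 and 25.6. Its second falling region (43798664 to 43799347) had 74.2, 52.9 and 70.0 against 2.16, 21.5 and 34.7, and both groups scattered widely there. By mean fold the gaps of these regions were 2.16 and 2.11 points, and that of the second was 35.2 without control 2 and 30.9 without knockdown library 3. EIF4EBP1, a translation repressor induced by ATF4, had a region 6.40 kb away with 42.6, 23.2 and 30.2 against 4.88, 8.16 and 7.04, and a gap of 8.07 by mean fold. The 46 shared regions of the aminoacyl-tRNA synthetase genes held 0 falling and 4 rising regions (8.70%, against 4.96% of all shared regions). Among amino acid transporter genes 5 of 102 were falling (4.90%) and 6 rising (5.88%). The largest gap was near the glycine transporter SLC6A9, 27.0 points.

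Among genes of the endoplasmic reticulum and the unfolded protein response, 8 of 147 shared regions were falling (5.44%) and 13 rising (8.84%). The falling ones belonged to EDEM1, EIF2AK3, ATF6, DNAJC3, SEL1L and TXNDC5. EIF2AK3 encodes PERK, a kinase upstream of ATF4, and its region (chromosome 2, 88544983 to 88545797, 10.9 kb away) had percentiles of 71.7, 78.0 and 77.2 against 38.4, 41.5 and 41.9. Replicates lay within a few points of each other in both groups, but the gap of 29.7 points was 9.90 by pileup and 6.10 by mean fold, both under the 10 points of the rule. The region in ATF6, a membrane-bound stress factor (chromosome 1, 161923691 to 161924392), had 55.2, 69.2 and 60.4 against 26.2, 28.9 and 26.04. EDEM1, of the degradation of misfolded glycoproteins, was nearest to a region as far as 437 kb away, with a gap of 39.3 points.

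Plasma cell and myeloma genes held 11 falling (3.12%) and 28 rising regions (7.93%) among 353, with a shared region for each of the 35 genes. TENT5C, a poly(A) polymerase often mutated in myeloma, had 2 falling regions of its 15. The one 57.6 kb away (chromosome 1, 117686005 to 117686944) had percentiles of 91.2, 84.2 and 78.3 against 17.7, 23.7 and 30.9, while its gene-end region had a gap of −29.7 points. IL6R, the receptor of the myeloma growth factor interleukin 6, had an intragenic region with 37.2, 41.3 and 41.2 against 19.1, 14.7 and 3.98. ZBTB20, a factor of plasma cell survival, had one 12.9 kb away with 91.8, 92.8 and 84.9 against 67.1, 27.2 and 54.1, and knockdown library 2 was the lowest by far. By the mean fold over summits the gaps of IL6R and ZBTB20 were negative, and that of ZBTB20 was 7.37 by −log10 q, 7.10 by pileup and 28.7 without knockdown library 1. The other genes with falling regions on this list were CCND1, CCND2, FCRL5, MAF and PRDM1.

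NF-kB genes held 6 falling regions of 147 (4.08%) and 13 rising (8.84%). TNFAIP3, an inhibitor of NF-kB signalling, had one 21.0 kb away (chromosome 6, 137904306 to 137905156) with percentiles of 65.1, 54.0 and 72.8 against 22.98, 25.9 and 24.3. A second at 8.84 kb (137892155 to 137893066) had 79.95, 59.9 and 88.0 against 35.2, 16.6 and 27.9, and its gap was 8.41 by pileup, 6.44 by mean fold and 44.5 without control 2. NFKB1, the precursor of p50, had an intragenic region that went from 38.7, 31.6 and 29.9 to 3.34, 3.12 and 5.32, near the bottom of each list, with a gap of 9.36 by mean fold. Survival and death genes held 5 falling (4.07%) and 8 rising regions (6.50%) among 123. BIK, a pro-apoptotic BH3 protein, had a falling region at its gene end (chromosome 22, 43128743 to 43130027) with 90.9, 92.9 and 91.3 against 77.9, 74.9 and 63.8, a gap that was 7.83 by pileup and 4.80 by mean fold. Another lay 6.05 kb away with a gap of 27.8 points. CDKN1A, the cell cycle inhibitor p21, had 80.3, 91.2 and 86.2 against 55.5, 32.0 and 53.6, and its gap was negative by the mean fold over summits.

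Genes of cyclic AMP signalling held 8 falling (5.13%) and 10 rising regions (6.41%) among 156. Among the falling ones were 2 regions of the nuclear receptor NR4A3 with gaps of 22.3 and 14.9 points, and 1 of CREM, 20.2 points. The first NR4A3 gap was 9.09 by −log10 q and 6.33 by pileup, and the second was 5.56 by mean fold and 27.5 without knockdown library 3. That of CREM was 8.39 by pileup, 5.81 by mean fold and 31.2 without control 2. In lists of genes of other functions the shares were 3.85% for bZIP and AP-1 factors, 3.66% for adhesion and cytoskeleton, 2.97% for mTORC1 and autophagy, 2.34% for MAP kinase feedback, 1.93% for coactivators and chromatin readers, 1.85% for the BACH1 and NRF2 axis, 1.27% for the cell cycle, 1.16% for the interferon response and 1 of 40 regions for housekeeping genes. Markers of other cell types held 3 of 66 regions for T and NK cells (4.55%), 0 of 16 for myeloid cells, 3 of 62 for epithelial and stromal cells (4.84%) and 2 of 100 for B cell genes that plasma cells switch off (2.00%). These falling counts rest on 0 to 11 regions each, and none is read as a result about its list.

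The regions next to falling regions along the chromosomes were counted as well. Of the 4397 shared regions next to a falling region on the same chromosome, 262 were falling (5.96%) and 200 rising (4.55%), against 3.67 and 4.96% next to any shared region. The median rank difference of these neighbours was −0.36 points, and 0.73 points over all. Another falling region within 50 kb was found for 282 of 2199 (12.8%), and a falling region lay that near to 10.1% of all shared and 10.7% of rising regions. Thus most falling regions had no other within that distance. A region listed in the 3 controls only lay within 50 kb of 15.7% of falling and of 15.7% of all shared regions. The genes nearest to the most falling regions were KHDRBS3, an RNA-binding protein, with 6 of 33 shared regions, VPS13B, a lipid transfer protein of the Golgi, with 6 of 26, LOC124901415 with 5 of 29, NAALADL2 with 4 of 25 and PLXNA2, a semaphorin receptor, with 4 of 29. The largest gap among these was 47.3 points, inside NAALADL2 (chromosome 3, 175316296 to 175317516), with percentiles of 76.0, 75.8 and 89.7 against 28.5, 27.2 and 12.5.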

How the data were processed

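ATAC-seq peak lists of 3 control and 3 knockdown libraries of KMS-11 were used. The submitters' processing notes name MACS2 and the hg38 build, and there is 1 list per library. Version, settings, aligner, read filters and transposase shift are not given in the sources at hand. The deposited fold enrichment is a ratio of summit pileup to local background, and the deposited −log10 p and −log10 q come from the caller's test within a library. The deposited score was not used for results. All of these move with depth, so they were ranked within a library.

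Merging, percentiles and intervals were computed with Python 3.11.15, pandas 2.3.3, numpy 2.4.6 and scipy 1.17.1. The pileup was recovered as the whole number whose Poisson tail matched the −log10 p within 0.01, for 100% of summits, and the library-wide background is the most common local background. The selection and recovery were tested on simulated data. Gene ends of 19974 protein-coding genes, promoter windows and starts came from RefSeq tables on GRCh38.p14, the assembly of hg38. No genome sequence was used, so sequence away from starts was not searched, and promoters of chromosome 8 were left out. The 21 lists held 471 genes.

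The members and lists were chosen with earlier results of these data known. Named regions are the 16 with the largest gap, the 10 with the largest gap at gene ends, up to 3 per list, members at the 5 genes nearest to most of them, those beside the threshold and up to 5 promoters by gap. No test was made, because the rule used all 6 libraries. Alternatives covered the ranked measure, the peak and gap thresholds, merging, chromosomes, single libraries, replicate pairs, and the window and gene set for gene ends.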

Additional observations from a re-analysis of the deposited data

How the results depend on the processing

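The number of falling regions was 1434 when ranked by pileup over library background, 4172 at a gap of 5 points and 625 at 20 points, and 2924 to 3903 with 1 library left out, which loosens the rule. The share at gene ends was 5.93% at a −log10 q minimum of 5 and 8.31% at 10, 5.90 and 3.20% at gaps of 5 and 20 points, 13.3% within 5 kb and 12.4% over all annotated genes, each below that of all shared regions under the same setting, and 4.62 to 5.34% without 1 library. The median width was 845 bp ranked by −log10 q and 879 bp by pileup, above the 829 bp of all shared regions. It was below theirs by mean fold (653 against 829 bp), at a −log10 q of 10 (801.5 against 971 bp), at a gap of 20 points (799 against 829 bp) and without 1 library (706.5 to 768 against 788 to 809 bp). By mean fold over summits, gaps turned negative at ABCG1 (−4.96), POU5F1 (−12.9), NME5 (−8.59), CDKN1A (−20.7), LCP1 (−4.34), TBXA2R (−0.96), IL6R (−0.018), ZBTB20 (−17.5), BCL11B (−5.17), ME1 (−2.82) and CDK6 (−29.1). By pileup BCL11B had −0.054. The cause was not tested. Of 767 gaps of 60 named regions under the alternatives, 714 were 10 points or more. The named regions were chosen by that gap, and leaving out a library or pairing replicates loosens the rule, so this total shows little. Where the ranked measure changed, 37 of 60 kept 10 points or more by mean fold, 44 by pileup and 53 by −log10 q. At a −log10 q of 10 only 10 of the 60 were still shared.

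Same-numbered controls and knockdown libraries had deviations from their group means correlated at 0.05, 0.00 and −0.01. For unlike-numbered libraries the correlations ran from −0.047 to 0.047. The values thus show no pairing by number, but they cannot tell whether the libraries were prepared in pairs. With the replicate block, a drop of 10 points in each of 3 pairs, 3993 regions were counted. The block loosens the rule, so its count could not be lower than that of the rule.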

Other observations

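Chromosome X was ranked with the others as an alternative. It had 2217 shared regions, of which 96 were falling (4.33%) and 97 rising (4.38%), and 7 of the 96 lay within 1 kb of a gene end (7.29%). The largest gap there, 62.5 points, was inside GUCY2F, a guanylate cyclase of the retina (chromosome X, 109440124 to 109441095), with percentiles of 94.6, 83.9 and 84.9 in the controls against 21.4, 6.04 and 15.5 with knockdown. The next was 31.9 kb from MAGEA1, a cancer-testis antigen, with 63.4, 63.6 and 66.0 against 11.8, 18.1 and 22.9.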
